A study of Rattus norvegicus with 24 samples.

Results

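Adam22 (ENSRNOG00000042478), Adam23 (ENSRNOG00000012424) and Adamts14 (ENSRNOG00000049385) are 3 of the 32883 genes counted in the rostral posterior hypothalamic (rPH) region of rats that heard loud noise on different numbers of days. They were selected on measured values of these rats, as the members of the ADAM and ADAMTS families that the study had listed as altered after 7 loud noise exposures: Adam22 and Adam23 against both the control (C) group and the acute stress (AS) group, and Adamts14 against the AS group. Their values in those comparisons are therefore given as a description. Each of the 3 genes passed the filter on low counts, as did 16202 genes in all.

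ADAM proteins are membrane proteins built from a metalloprotease-like domain, a disintegrin domain and an epidermal growth factor-like part. ADAM22 and ADAM23 lack protease activity and act in the brain as receptors for the secreted proteins of the LGI family, which link the axonal and the synaptic surface and bring scaffold proteins and potassium channels together. ADAMTS14 is a secreted protease of the ADAMTS family that removes the amino-terminal propeptide of fibrillar procollagens.

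The animals were adult male Sprague-Dawley rats, and in every group they spent part of each of 7 days in a chamber that damps outside sound. The C group heard only fan background noise, the AS group 1 loud white noise on the last day, the RS3 (repeated stress 3) group 3 on the last 3 days and the RS7 (repeated stress 7) group 7, 1 on each day. All rats, controls included, had blood taken from a tail nick after the last exposure and were euthanized 24 h later. A dissected tissue block, not a sorted cell type, was sequenced from each of 24 rats, 6 per group, and the 20 rats that the study retained, 5 per group, were compared. A difference in such a block does not separate fewer cells of a type from less RNA per cell, which cannot be told apart here.

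The total count lay between 8087697 and 16947298 in the 20 retained rats, with the highest group median in the RS7 group (14189794) and the lowest in the C group (11298078). The 10 most abundant genes took 12.4% to 14.9% of the counts in 17 of these rats, and 20.1%, 20.3% and 18.8% in C rat 21, C rat 22 and RS7 rat 4. Levels are given as CPM, the count relative to the library size after scaling by the trimmed mean of M values (TMM). They are not divided by gene length, so the level of 1 gene is not set against that of another.

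Adam22 had its highest level after 7 exposures. C rats 19, 21, 22, 23 and 24 had 43.9, 39.7, 48.7, 44.9 and 49.3 CPM. AS rats 13 to 17 had 54.3, 39.9, 48.0, 44.1 and 41.8 CPM, with AS rat 13 standing above the other AS rats. RS3 rats 7, 9, 10, 11 and 12 had 43.3, 53.6, 52.7, 46.2 and 50.2 CPM. RS7 rats 2 to 6 had 55.7, 54.9, 64.0, 57.4 and 55.8 CPM. The 5 RS7 rats were thus above all 15 other rats, with RS7 rat 3 closest to AS rat 13, while the C, AS and RS3 rats overlapped. An arrangement with the 5 RS7 rats above the other 15 was found in 18 genes (0.111% of 16202), and one with the 5 below in 4 genes. The group means were 45.3 ± 3.93 CPM (SD, n = 5) for C, 45.6 ± 5.71 for AS, 49.2 ± 4.34 for RS3 and 57.6 ± 3.73 for RS7. In this order the C, AS and RS3 neighbours differed by less than 1 SD. The counts behind these values ran from 298 to 977 per rat.

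Adam23 also had its highest mean after 7 exposures, over a narrower range. Its level was 105, 100.2, 103, 103 and 111 CPM in the C rats and 104, 99.7, 109, 103 and 101 CPM in the AS rats, in the order of rats given above. It was 102, 119, 108, 102 and 112 CPM in the RS3 rats and 113, 113, 117, 126 and 116 CPM in the RS7 rats. Every RS7 rat was above every C and every AS rat, whereas RS3 rat 9 was above 4 of the 5 RS7 rats. The group means were 104.7 ± 4.15 CPM (SD, n = 5) for C, 103.4 ± 3.5 for AS, 108.6 ± 7.13 for RS3 and 116.9 ± 5.33 for RS7. The means of the C, AS and RS3 groups lay within 1 SD of the RS3 group from each other.

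Adamts14 was counted far less often, with 17 to 50 reads per rat, and had its lowest mean in the RS7 group. Its level was 3.08, 3.33, 2.41, 2.35 and 2.03 CPM in the C rats and 2.47, 1.88, 3.39, 3.14 and 3.60 CPM in the AS rats. It was 3.78, 2.97, 2.32, 2.97 and 1.85 CPM in the RS3 rats and 1.95, 1.53, 1.97, 1.64 and 1.33 CPM in the RS7 rats. The 5 RS7 rats were below the 5 C rats, but AS rat 14 and RS3 rat 12 were lower than RS7 rats 2 and 4. The group means were 2.64 ± 0.542 CPM (SD, n = 5) for C, 2.90 ± 0.712 for AS, 2.78 ± 0.733 for RS3 and 1.68 ± 0.275 for RS7. Counting alone leaves a wide margin here, since the 17 reads of RS7 rat 6 have a 95% Poisson interval of 9.9 to 27.2 reads and the 50 reads of RS3 rat 9 one of 37.1 to 65.9. These intervals cover counting error only.

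**Figure D1:**
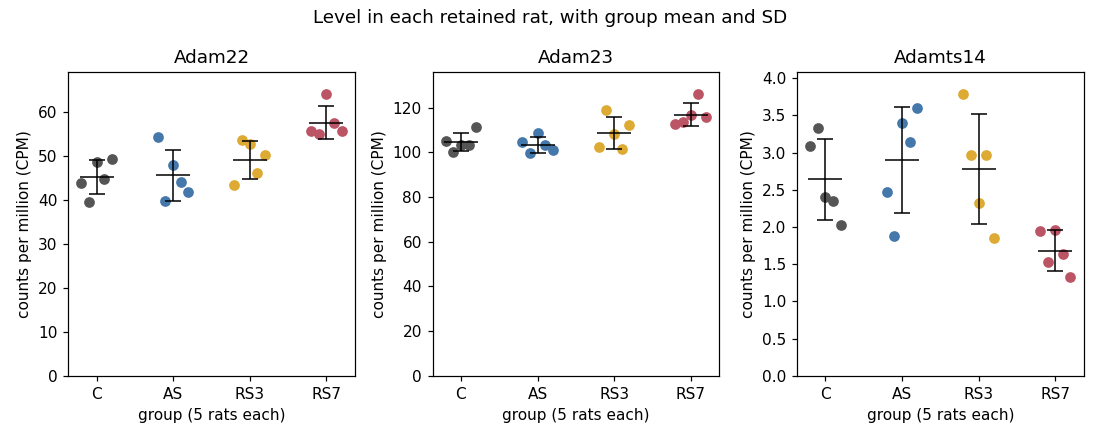
Level of Adam22, Adam23 and Adamts14 in CPM (vertical axis, from 0) in each of the 20 retained rats by group (horizontal axis), with the group mean (horizontal bar) and SD (error bar). The 5 RS7 rats lie above all others for Adam22 (54.9 to 64.0 CPM) and overlap the RS3 group for Adam23. For Adamts14 they have the lowest group mean, with levels of 1.33 to 1.97 CPM that overlap the AS and RS3 groups.

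The comparisons among the C, AS and RS3 groups did not choose these genes and gave no called difference. They share C or AS rats with the comparisons that chose the genes, so their values are not independent of the choice. A log2 fold change is the second group minus the first, with its standard error, from the edgeR quasi-likelihood test, adjusted by Benjamini-Hochberg over 16202 genes. Between the C and AS groups, a comparison of the effect of 1 exposure after 24 h, the log2 fold changes were 0.01 ± 0.08 for Adam22, -0.02 ± 0.05 for Adam23 and 0.14 ± 0.20 for Adamts14 (edgeR adjusted p = 0.982, 0.923 and 0.833). Between the C and RS3 groups they were 0.12 ± 0.08, 0.05 ± 0.05 and 0.07 ± 0.20 (edgeR adjusted p = 0.436, 0.596 and 0.897). Between the AS and RS3 groups they were 0.11 ± 0.08, 0.07 ± 0.05 and -0.08 ± 0.19, each with an edgeR adjusted p of 1. The groups overlapped for each of the 3 genes in these 3 comparisons, in which groups did not overlap for 1.17%, 2.28% and 0.889% of all genes. In each of these comparisons 0 of the 3 genes and 0 of all genes were called by edgeR (percent called, 0). An unadjusted p under 0.05 was found for 1625, 2639 and 747 genes. DESeq2 called 0, 36 and 3 genes (0.648% and 0.0164% in the latter comparisons), none of them Adam22, Adam23 or Adamts14, and its own filter removed Adamts14 from the C versus RS3 comparison.

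The comparison of the RS3 and RS7 groups shares the RS7 rats with those that chose the genes. There, Adam22 had a log2 fold change of 0.22 ± 0.08 and Adam23 one of 0.11 ± 0.05 (edgeR adjusted p = 0.619 and 0.648). Adamts14 had a log2 fold change of -0.69 ± 0.21 (edgeR adjusted p = 0.619), larger in size than that of all but 0.913% of genes. By unadjusted p, Adamts14 ranked 61, Adam22 185 and Adam23 921 of the 16202 genes. The RS3 and RS7 rats did not overlap for Adam22, as for 1.54% of all genes, and overlapped for the other two. EdgeR called 0 genes in this comparison, as did DESeq2, and 1218 genes had p under 0.05 before adjustment.

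Between the C and RS7 groups the log2 fold changes were 0.34 ± 0.08 for Adam22, 0.16 ± 0.05 for Adam23 and -0.62 ± 0.21 for Adamts14, that is 1.27-fold, 1.12-fold and 0.650-fold. Both groups stood apart for all 3 genes, as for 3.59% of all genes. Between the AS and RS7 groups the values were 0.34 ± 0.08, 0.18 ± 0.05 and -0.77 ± 0.21, that is 1.26-fold, 1.13-fold and 0.588-fold. Adam22 and Adam23 stood apart there, as 4.08% of genes did, and Adamts14 did not. These 2 comparisons share the RS7 rats and chose the genes, so nothing is read from the agreement of their values or from their tests.

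Whether the 3 genes passed the threshold of 0.05 differed between tools. Between the C and RS7 groups, 0 of the 3 genes were called by edgeR, with adjusted p = 0.054, 0.107 and 0.139 for Adam22, Adam23 and Adamts14, and 0.148% of all genes. DESeq2, the tool of the study, called Adam22 and Adam23 but not Adamts14 (DESeq2 adjusted p = 0.00759, 0.0449 and 0.115), among 2.73% of genes. Between the AS and RS7 groups, Adam22 was called by edgeR (adjusted p = 0.0264) but neither Adam23 nor Adamts14, each at 0.0542, and 1.67% of all genes. DESeq2 called each of the 3 genes there (DESeq2 adjusted p = 0.00421, 0.0132 and 0.0298), among 3.9% of genes. In simulated counts compared between the C and RS7 groups, edgeR made 134 calls, with 10 wrong, and DESeq2 150, with 18 wrong. Between the AS and RS7 groups edgeR made 131, with 4 wrong, and DESeq2 150, with 16 wrong. EdgeR called 68.7% of the genes changed 1.5-fold in either comparison, a larger change than that of Adam22 or Adam23. These comparisons of simulated counts are not read as independent of each other.

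**Figure D2:**
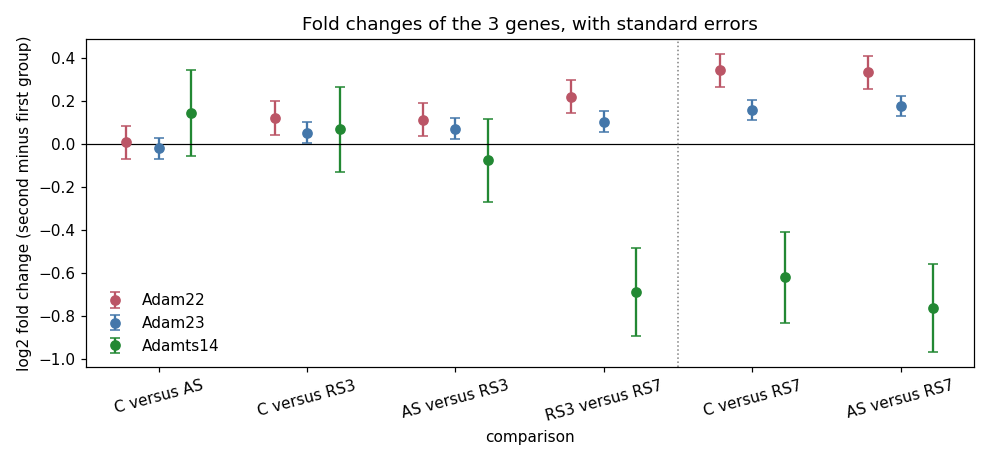
Log2 fold change of Adam22, Adam23 and Adamts14 (vertical axis, second minus first group) with its standard error in the 6 group comparisons (horizontal axis). The 2 comparisons right of the dotted line are those that chose the genes. Adam22 reached 0.34 in both, against 0.01 between the C and AS groups, and Adamts14 lay between -0.62 and -0.77 in the 3 comparisons with the RS7 group.

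The edgeR call of Adam22 between the AS and RS7 groups was lost in several fits with 1 rat left out. Among AS rats, it was lost without number 14 (edgeR adjusted p = 0.0982), 16 (0.0699) or 17 (0.1). Among RS7 rats, it was lost without number 3 (edgeR adjusted p = 0.0515), 4 (0.0526), 5 (0.057) or 6 (0.0537), with log2 fold changes between 0.29 and 0.41 in all 20 fits with 1 rat left out. Without RS7 rat 3, 5 or 6 the log2 fold change was 0.355, 0.338 and 0.348, against 0.336 with all of them. The genes called in all fell to 81, 97 and 83, from 270. A crossing of 0.05 thus does not show which rats carry a difference, and some rats named below were in neither group compared. Against the C group, Adam22 passed the threshold without C rat 23 (edgeR adjusted p = 0.0463), C rat 24 (0.0458), AS rat 13 (0.0332), RS3 rat 7 (0.0436), RS3 rat 11 (0.0457) or RS7 rat 4 (0.04). Against the AS group, Adam23 passed it without C rat 21 (edgeR adjusted p = 0.0495), AS rat 15 (0.0429), RS3 rat 9 (0.0376), RS3 rat 11 (0.046) or RS7 rat 2 (0.0483). Adamts14 passed it without RS3 rat 7 (0.0442), RS3 rat 12 (0.0469) or RS7 rat 2 (0.0489). Without C rats 21 and 22 and RS7 rat 4, the rats with a high share of counts in few genes, the log2 fold changes of the 3 genes were 0.30, 0.18 and -0.83 against the AS group and 0.29, 0.14 and -0.62 against the C group.

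The 4 rats that the study left out, 1 per group, had no part in the choice of the genes, and their levels are given with all 24 rats scaled together. Adam22 was at 44.9 CPM in C rat 20, 35.2 in AS rat 18, 50.3 in RS3 rat 8 and 55.0 in RS7 rat 1. The left-out RS7 rat had the highest Adam22 level of the 4 and lay within the retained RS7 rats on the same scale (51.9 to 60.5 CPM). Adamts14 was at 2.96, 5.36, 2.73 and 1.52 CPM in the same order, again with the left-out RS7 rat within the retained RS7 rats (1.26 to 1.86 CPM). Its 16 Adamts14 reads have a Poisson interval of 0.871 to 2.476 CPM. That interval reaches into the retained C (1.925 to 3.14 CPM), AS (1.766 to 3.389) and RS3 (1.759 to 3.563) ranges. The Adamts14 level therefore does not set this rat apart from the other groups. Adam23 was at 98.4, 75.0, 111 and 100.4 CPM, and here the RS7 rat lay below the retained RS7 rats (107 to 119 CPM) and below RS3 rat 8. These libraries were of lower quality: AS rat 18 had 4744531 counts, with 92, 196 and 14 reads on the 3 genes, and its 10 most abundant genes took 46.4% of the counts. That share was 33.8% in RS7 rat 1, 25.1% in C rat 20 and 24.9% in RS3 rat 8, against at most 20.3% in a retained rat. One rat per group allows no test.

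Within groups, rats with more Adam22 also had more Adam23. After the group mean was subtracted from each log2 CPM value, Pearson's r over 20 rats was 0.628 (two-sided permutation of rats within groups, p = 0.00489, Benjamini-Hochberg adjusted over 3 pairs 0.0147) and Spearman's rho 0.788 (permutation p = 0.0003, adjusted 0.0009). This measure leaves out the group differences that chose the genes. The test asks only whether r differs from 0, and the share of all genes with an r as high was not computed. Other genes followed Adam22 more closely: Apba1, with r = 0.805 on this measure, ranked 14 of 16201 genes. Without AS rat 13 and RS7 rat 4, the rats farthest from the median of Adam22, r was 0.764 (permutation p = 0.00054, adjusted 0.00162), and in all 24 rats it was 0.675 (permutation p = 0.00288, adjusted 0.00864). Adamts14 showed no such relation that passed the test: r was -0.246 with Adam22 (permutation p = 0.374, adjusted 0.415; rho -0.322, p = 0.217) and -0.223 with Adam23 (permutation p = 0.415, adjusted 0.415; rho -0.281, p = 0.28). The value for Adam23 and Adamts14 moved to -0.505 in all 24 rats (permutation p = 0.0686, adjusted 0.103) and to -0.387 without RS3 rat 9 and RS7 rat 5 (permutation p = 0.184, adjusted 0.276), and that for Adam22 and Adamts14 to -0.385 in all 24 rats (permutation p = 0.158, adjusted 0.158). The labels give no batch.

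**Figure D3:**
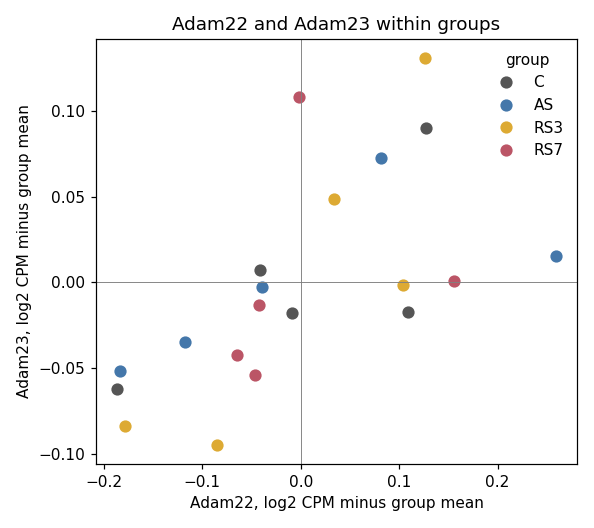
Adam23 against Adam22 in the 20 retained rats, each as log2 CPM minus the mean of the rat's group, with groups by colour. Points run from lower left to upper right (Pearson's r = 0.628), and AS rat 13 lies farthest right.

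The partner genes of ADAM22 and ADAM23 with an identifier, 4 of 4, had log2 fold changes above 0 in the RS7 group against the AS group, as both receptors did. Of 21 ligand and partner genes, 4 had an identifier, because symbols were given only for genes that the study had listed from these rats. They are therefore not independent evidence of a direction. Kcna2, an axonal voltage-gated potassium channel subunit, was called higher in the RS7 group (log2 fold change 0.32 ± 0.07, edgeR adjusted p = 0.0275). Kcna1, a channel subunit that joins Kcna2, had a log2 fold change of 0.48 ± 0.13, Kcnab2, the beta subunit of these channels, one of 0.24 ± 0.07, and Cask, a scaffold kinase, one of 0.18 ± 0.06 (edgeR adjusted p = 0.0723, 0.0606 and 0.109). Thus 1 of 4 was called higher and 0 lower, where 1.67% of all genes were called in either direction, and against the C group 0 of 4 were called, with log2 fold changes of 0.15 to 0.27. The genes of the list without an identifier, the LGI ligands among them, were not analysed here.

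Of 14 genes for fibrillar collagens and their processing, 3 had an identifier, again from the study's own lists. Against the AS group, P3h3, a prolyl 3-hydroxylase of collagen, and P4ha2, a prolyl 4-hydroxylase subunit, were called lower in the RS7 group (log2 fold changes -0.42 ± 0.11 and -0.32 ± 0.08, edgeR adjusted p = 0.044 and 0.0283). Lox, which cross-links collagen outside the cell, was called higher (0.93 ± 0.21, edgeR adjusted p = 0.031). Thus 1 of 3 was called higher and 2 lower, where 1.67% of all genes were called, and genes without an identifier could not enter this count. Against the C group, where 0.148% of all genes were called, 0 of these 3 genes were called, with log2 fold changes of -0.43, -0.25 and 0.53 for P3h3, P4ha2 and Lox. Of the 29 ADAM and 24 ADAMTS family genes of the lists, only Adam22, Adam23 and Adamts14 had an identifier, and the others were not analysed here.

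**Figure D4:**
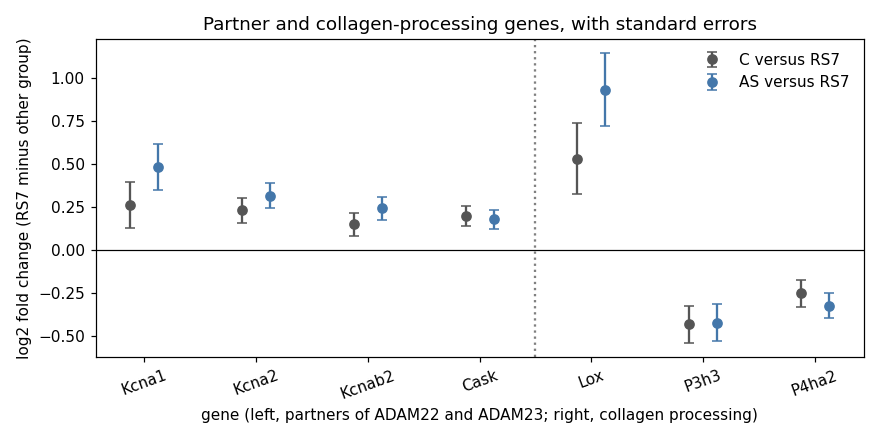
Log2 fold change (vertical axis, RS7 minus the C or AS group) with its standard error for 4 partner genes of ADAM22 and ADAM23 and, right of the dotted line, 3 collagen-processing genes. The partner genes lie between 0.15 and 0.48, Lox above 0, and P3h3 and P4ha2 below 0.

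The genes whose log2 CPM followed each member most closely over the 20 rats were taken among the 779 genes with a symbol, as a description. The study had listed those genes as altered in these same rats, so a high r over the 20 rats is partly set by that choice. For Adam22 they were Nsf, an ATPase that takes SNARE complexes apart (r = 0.918), Slc24a3, a sodium-calcium exchanger (0.894), and Myo5a, a myosin motor (0.892). With group means subtracted, Nsf (0.866) and Slc24a3 (0.850) remained at the head, with Apba1, a presynaptic adaptor (0.805), as the third. For Adam23 they were Cntn4, a neuronal contactin (0.937), Tenm3, a teneurin (0.919), and Spock1, an extracellular proteoglycan (0.917), and these 3 genes also led with group means subtracted (0.863, 0.856 and 0.849). For Adamts14 they were Npr2, a natriuretic peptide receptor (0.862), P3h3 (0.815) and Mgst1, a glutathione transferase (0.807). With group means subtracted they were Ddx39b, an RNA helicase (0.772), Cstf2, a factor of messenger RNA cleavage (0.738), and Npr2 (0.706). These ranked 7, 19 and 39 of all 16201 genes, where the highest r of any gene was 0.842. All points share the library and its scaling.

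By mean summed level, markers of the dorsal thalamus were highest and hypothalamic markers lowest in the RS7 group. The RS3 group lay between the RS7 group and the C and AS groups for both. Of 8 genes that mark the dorsal thalamus, 5 had an identifier (Rora, Rorb, Lef1, Ntng1 and Cbln2), and their summed level was 362 to 475 CPM for C, 377 to 509 for AS, 379 to 575 for RS3 and 541 to 674 for RS7. All 5 had a log2 fold change above 0 in the RS7 group against both the C and the AS group. Against the AS group 2 were called higher, where 1.67% of all genes were called in either direction. The lowest level of any of these 5 genes in a rat was 6.37 CPM (Rora). Markers, here and for the cell types below, had an identifier only where the study had listed the gene as altered in these rats. Their directions and calls are therefore not independent evidence. Of 12 hypothalamic markers, 10 had an identifier, with a summed level of 113 to 413 CPM for C, 146 to 446 for AS, 80.6 to 264 in the RS3 group and 71.7 to 130 in the RS7 group, and 8 of the 10 had a log2 fold change below 0 in the RS7 group against both groups. Avp and Oxt, hypothalamic neuropeptide genes, were detected, with medians of 6.65 and 12.4 CPM, but ranged from 0.0781 CPM upward between rats.

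Adam22 and Adam23 moved with the thalamic markers within groups. A thalamic score, the mean over the 5 genes of log2 CPM minus the gene's mean, averaged -0.157 ± 0.213 for C, -0.224 ± 0.201 for AS, 0.070 ± 0.218 for RS3 and 0.311 ± 0.088 for RS7 (SD, n = 5). With group means subtracted, its r over 20 rats was 0.618 with Adam22 (permutation p = 0.0134, adjusted over 6 relations 0.0402; rho 0.657, p = 0.00666) and 0.622 with Adam23 (permutation p = 0.00693, adjusted 0.0402; rho 0.612, p = 0.00843). Without C rat 21 and RS3 rat 11, the rats farthest from the median score, r was 0.535 and 0.474 (permutation p = 0.0746 and 0.0389, both adjusted 0.224). Neither relation passed the test after adjustment in these 18 rats. No other pair of rats was left out for the thalamic score, so which rats carry the relation was not tested. Adamts14 had an r of -0.371 with the thalamic score (permutation p = 0.172, adjusted 0.344; rho -0.352, p = 0.189). The same score of the 10 hypothalamic genes had r of -0.0528, -0.0478 and 0.0873 with Adam22, Adam23 and Adamts14 (permutation p = 0.831, 0.87 and 0.74, each adjusted 0.87).

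With the thalamic score added to the model, an alternative made after the values were known, each difference from the RS7 group was closer to 0. The log2 fold changes of Adam22, Adam23 and Adamts14 were then 0.14, 0.05 and -0.34 against the C group, 0.10, 0.05 and -0.43 against the AS group and 0.12, 0.05 and -0.55 against the RS3 group, with edgeR adjusted p of 0.85 or more. Over all genes, edgeR then called 0 against the C group and 0 against the AS group, in place of 24 and 270, with 698 and 997 genes at p under 0.05 before adjustment. The 5 marker genes come from the study's lists of these same comparisons, so the covariate also takes up part of any group difference. The score of every RS7 rat (0.232 or more) lay above that of every C rat (up to 0.03) and AS rat (up to -0.019). Group and score therefore cannot be told apart in those 2 comparisons, and nothing is read from the smaller values or from the fall in calls. Other markers with an identifier were 9 of 12 for neurons, with a summed level of 5015 to 5291 CPM for C, 4653 to 5299 for AS, 4926 to 5621 for RS3 and 5188 to 5875 for RS7. The neuronal genes went both ways. In the fit without the thalamic score, 1.67% of all genes were called against the AS group. Snap25, a synaptic vesicle fusion protein, and Nefm, a neurofilament, were called higher there (log2 fold changes 0.24 and 0.40). Gad1, which makes the transmitter GABA, was called lower (-0.71). The other neuronal genes had values of 0.22 to 0.35 (Nefl, Nefh, Thy1 and Slc17a6), -0.55 (Gad2) and -0.52 (Slc32a1). The 3 of 5 for astrocytes summed to 1888 to 2295, 1751 to 1945, 1790 to 1895 and 1751 to 2033 CPM in the same order, and the 1 of 4 for endothelium (Plvap) lay at 7.09 to 10.3, 6.39 to 8.77, 7.67 to 13.3 and 9.34 to 13.1 CPM. Lists for oligodendrocytes, their precursors, microglia, fibroblasts and mural cells, and choroid plexus had no gene with an identifier. Among the astrocyte and endothelial genes, Slc1a2, a glutamate transporter, and Plvap were called higher against the AS group (log2 fold changes 0.42 and 0.53). The part of dissection or cell makeup in the differences of the 3 genes was not tested.

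**Figure D5:**
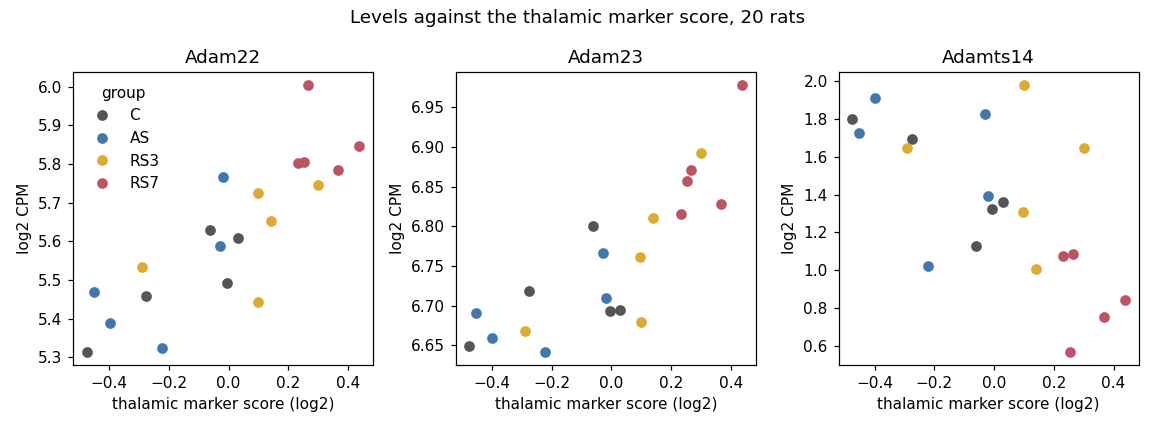
Log2 CPM of Adam22, Adam23 and Adamts14 (vertical axis) against the thalamic marker score (horizontal axis, log2 units) in the 20 retained rats, with groups by colour. The 5 RS7 rats lie at scores of 0.232 to 0.438, above the C rats (-0.475 to 0.030) and the AS rats (-0.452 to -0.019).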

How the data were processed

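The authors trimmed paired reads with Trimmomatic (version 0.36), mapped them to rn6 with HISAT2 (version 2.0.5) and counted them on Ensembl genes with featureCounts. The deposited table holds unnormalized counts of 32883 genes in 24 rats. The sources used here do not give the strand setting or how multiply mapped reads were counted, so overlapping or antisense genes may exchange reads. The 4 rats left out were found by recomputing the study's mean counts: 1 of 1296 sets gave all 808 printed values (relative tolerance 1e-06), the next best 1. Replicates are separate rats. Symbols came from the study's gene lists (779 identifiers).

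EdgeR 4.0.16 (TMM, filterByExpr with a minimum count of 10, robust quasi-likelihood test, 4 groups in 1 fit, 16 residual degrees of freedom) was run in R 4.3.3. The log2 CPM values had a prior count of 2. Benjamini-Hochberg adjustment was made within each comparison, at 0.05. DESeq2 1.42.0, limma-voom (limma 3.58.1), size factors, filters, thinning to 8087697 counts, all 24 rats, the groups compared alone and leaving out each rat were alternatives. A thalamic covariate, a covariate of the percentage taken by the top 10 genes, a fit that omits C rats 21 and 22 with RS7 rat 4, and the relations with marker scores were added after seeing the data. Correlations used 100000 permutations. EdgeR, DESeq2 and limma-voom were tested on simulated counts with 200 of 16202 genes changed. The 3 genes and all lists were chosen with earlier results of these data known. Named genes are the 3 members, the list genes with an identifier and the 3 genes with a symbol most correlated with each member. One further gene, outside the 21 counted as partners, was left out and is not reported here.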

Additional observations from a re-analysis of the deposited data

Results flagged for a closer look

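In the RS7 group, rat 4 had 64.0 CPM of Adam22, against 54.9 to 57.4 CPM in the other 4 rats. Its distance from the nearest rat was 0.729 of the group's range, above the critical value of 0.71 for 5 rats in Dixon's test. Of 12 sets of 5 rats examined (3 genes in 4 groups), 1 was singled out in this way, where chance gives about 1 in 20. The same rat had 18.8% of its counts in the 10 most abundant genes, the highest share of the 5 RS7 rats, and the part of this in its Adam22 level was not tested. Without RS7 rat 4 the log2 fold change of Adam22 was 0.31 against the C group (edgeR adjusted p = 0.04) and 0.30 against the AS group (edgeR adjusted p = 0.0526).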

How the results depend on the processing

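The direction of Adam22, Adam23 and Adamts14 in the 3 comparisons with the RS7 group was kept under every alternative run, and the calls were not. In the C versus RS7 group comparison Adam22 passed 0.05 with DESeq2 (log2 fold change 0.35), with no filter on low counts (0.35), with limma-voom (0.30) and with thinned libraries (0.40), and Adam23 with DESeq2 (0.17). In the AS versus RS7 group comparison Adam23 passed with DESeq2 (0.19), the groups compared alone (0.18), limma-voom (0.17) and the covariate of the share of the 10 most abundant genes (0.18). Adamts14 passed there with DESeq2 (-0.76), all 24 rats (-0.86), the groups compared alone (-0.76), limma-voom (-0.75) and the same covariate (-0.86), and Adam22 did not pass with the thalamic covariate (0.10). The cause was not tested.

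Values near 0 that were called in no fit changed sign. These were Adam22 in C versus AS with all 24 rats (-0.0371), with limma-voom (-0.0386) and without C rats 21 and 22 and RS7 rat 4 (-0.0069), Adamts14 in C versus RS3 with limma-voom (-0.009), and Adam22 (-0.0149) and Adamts14 (0.11) in AS versus RS3 with the thalamic covariate.

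With 1 rat left out at a time, the log2 fold changes ran from 0.29 to 0.41 (Adam22), 0.15 to 0.20 (Adam23) and -0.88 to -0.67 (Adamts14) in AS versus RS7, and from 0.30 to 0.38, 0.13 to 0.18 and -0.70 to -0.54 in C versus RS7. They ran from -0.0641 to 0.0536 (Adam22) and -0.0362 to 0.0045 (Adam23) in C versus AS, from -0.0405 to 0.18 (Adamts14) in C versus RS3 and from -0.19 to 0.0331 (Adamts14) in AS versus RS3. The correlation of Adam22 with Adam23 passed under each alternative. Genes called numbered 0 to 560 in C versus RS7 and 46 to 403 in AS versus RS7 with 1 rat left out, against 24 and 270, and DESeq2 called 405 and 579. They numbered 64 with no filter, 46 in all 24 rats, 164 with limma-voom and 50 thinned in C versus RS7, and 129 in all 24 rats, 433 in the groups compared alone and 868 with limma-voom in AS versus RS7, and 0 in both with the thalamic covariate. No paired analysis was possible because the rat numbers differ between the groups. Adamts14, at 17 to 50 reads per rat, is limited by depth.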
